A study of Homo sapiens with 15 samples.

Results

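NF-κB is a family of transcription factors whose target genes include chemokines, cytokines, survival factors and the pathway's own inhibitors. A module of 43 such genes was followed through a study of estrogen receptor β (ERβ, encoded by ESR2) in KPL4, a human breast adenocarcinoma cell line. The members were listed by symbol, and 43 of 43 were found among the 60664 entries of the deposited gene table. All 43 had at least 1 read in at least 1 of the 15 libraries, 30 passed the filter on low counts and could be tested, and 13 did not. Total RNA was measured by sequencing in 5 groups of 3 libraries. The LY500307 group was ERβ knockout KPL4 cells carrying exogenous ERβ, kept for 72 h without phenol red in 1% dextran-coated charcoal-treated serum and then given 200 nM LY500307, an ERβ agonist, for 24 h. The vehicle group was the same cells given DMSO in place of the agonist. The add-back group was knockout cells with exogenous ERβ in ordinary medium with 7% fetal bovine serum. The knockout group had lost ERβ and received none, and the control group was KPL4 cells with their endogenous ERβ, both in the ordinary medium. That medium also held insulin and hydrocortisone, a glucocorticoid, and the labels do not say whether the phenol red-free medium did. How the gene was disrupted, whether each line was 1 clone, and which promoter or ERβ isoform the exogenous receptor used were not given in the sources used here, so a difference between lines cannot be told apart from a difference between the cells they were grown from. The labels do not say whether libraries of 1 group came from separate cultures, and p-values measure only the spread between these libraries, which may be technical.

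In resting cells NF-κB dimers, built from the Rel proteins RELA, RELB, REL and the products of NFKB1 and NFKB2, are held in the cytoplasm by IκB proteins such as NFKBIA. Signals from tumor necrosis factor, interleukin-1 or Toll-like receptors activate the IκB kinase complex, the inhibitors are degraded, and the dimers bind κB sites in DNA and raise transcription of their targets. Several targets, among them NFKBIA and TNFAIP3, shut the pathway down again, and in epithelial tumor cells the chemokine targets recruit leukocytes while targets such as BIRC3, CFLAR and BCL2L1 restrain cell death.

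Promoter stretches around a κB-like match were shown for 12 of the 22 members that have one, to show how alike these stretches are. Among them are the called chemokines CXCL8, CXCL10 and CCL20, then IL32, TNFAIP3 and BIRC3, and the near-silent CXCL1 to CXCL3 cluster. The windows of 12 other members, among them PTGS2, TNFAIP2, TRAF1, TNF and CSF2, held no match, and none of them is printed. Each line gives bases 5′ to 3′ on the strand of the gene from RefSeq promoter windows on GRCh38.p14, with capitals marking bases that match the 10-base κB consensus or the shorter form GGAANTTCC on either strand, 2 patterns that overlap in many promoters. The stretches lie at chr4:73740458-73740506 (CXCL8, plus strand), chr4:76023590-76023694 (CXCL10, minus strand), chr2:227813743-227813792 (CCL20, plus), chr16:3065284-3065334 (IL32, plus), chr6:137867172-137867233 (TNFAIP3, plus), chr11:102317265-102317378 (BIRC3, plus), chr19:10270914-10270962 (ICAM1, plus), chr4:102501290-102501339 (NFKB1, plus), chr14:35404801-35404850 (NFKBIA, minus), chr4:73869294-73869344 (CXCL1, plus), chr4:74099243-74099293 (CXCL2, minus) and chr4:74038738-74038788 (CXCL3, minus).
CXCL8: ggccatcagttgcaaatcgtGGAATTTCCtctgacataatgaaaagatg
CXCL10: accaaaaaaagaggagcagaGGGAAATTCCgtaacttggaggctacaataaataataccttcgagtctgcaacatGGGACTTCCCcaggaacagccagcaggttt
CCL20: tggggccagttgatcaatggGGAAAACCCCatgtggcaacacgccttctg
IL32: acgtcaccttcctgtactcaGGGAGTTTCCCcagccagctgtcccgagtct
TNFAIP3: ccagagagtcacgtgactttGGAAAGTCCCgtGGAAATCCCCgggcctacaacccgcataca
BIRC3: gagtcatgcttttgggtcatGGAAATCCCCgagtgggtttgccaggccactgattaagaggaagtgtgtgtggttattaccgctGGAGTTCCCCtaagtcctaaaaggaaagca
ICAM1: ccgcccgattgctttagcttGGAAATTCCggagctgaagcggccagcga
NFKB1: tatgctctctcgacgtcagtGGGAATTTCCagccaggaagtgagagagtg
NFKBIA: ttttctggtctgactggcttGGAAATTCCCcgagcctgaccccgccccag
CXCL1: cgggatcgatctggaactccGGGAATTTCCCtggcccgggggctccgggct
CXCL2: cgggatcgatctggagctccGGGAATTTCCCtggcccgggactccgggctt
CXCL3: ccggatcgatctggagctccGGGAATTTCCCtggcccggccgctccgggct
CXCL1, CXCL2 and CXCL3 carry the same capitals.

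A window of 250 bases before to 50 after a RefSeq start was found for 34 of the 43 members, in 56 windows. CCL5, RELB, CX3CL1, NFKBIE, CSF1, CSF3, CXCL16, CCL2 and LIF had none. The κB consensus stood in 20 of the 34 members and in 41.1% of their windows, against 11.3% of 35114 windows of all genes. GGAANTTCC stood in 12 of the 34 members and in 21.4% of their windows, against 0.965% of all windows. At least 1 of these 2 forms was found in 22 of the 34 members and in 44.6% of their windows, against 11.8% of all windows. The palindromic estrogen response element, searched on both strands, was in 0 of the 34 members and in 0.057% of all windows. A match is a description of letters, not a site, and members of this module were listed because they are known targets of NF-κB.

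**Figure D1:**
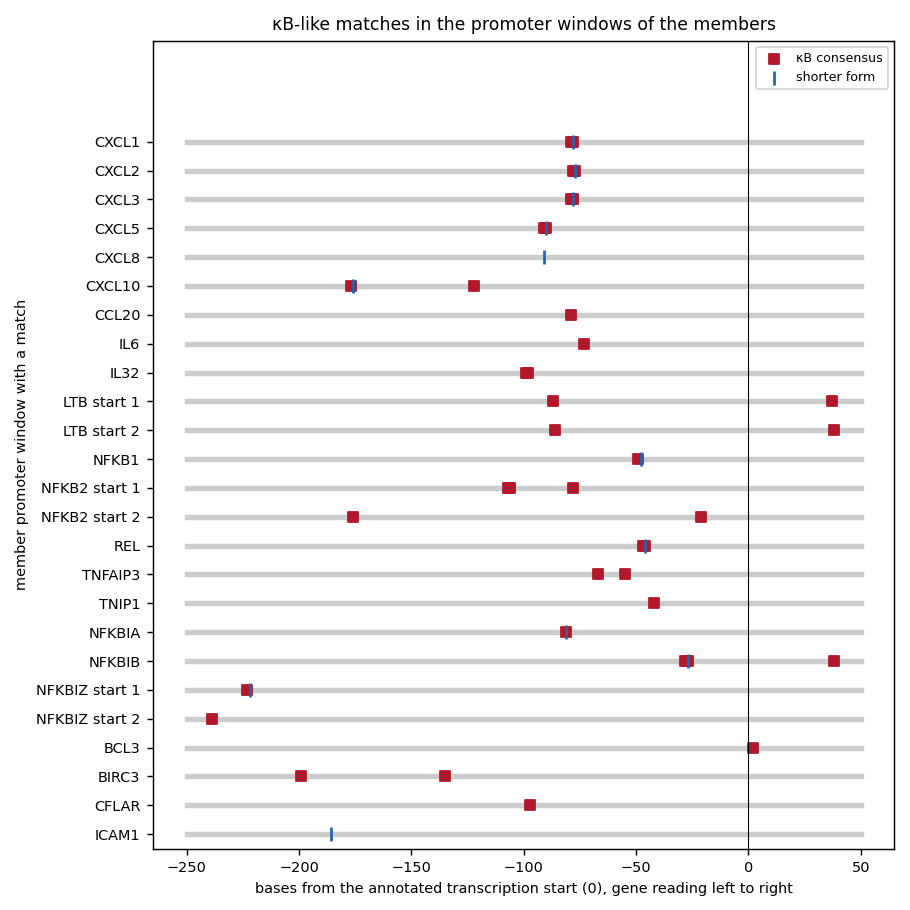
Each grey bar is a RefSeq promoter window with at least 1 match, the x axis gives bases from the annotated start, squares mark the κB consensus and vertical ticks the shorter form. CXCL1, CXCL2 and CXCL3 have theirs 77 to 79 bases before the start, and the matches of 22 members spread over the whole window.

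Most chemokines and cytokines were among the low members, with CXCL16 and IL32 as exceptions. Per length, as TPM (transcript abundance scaled to length and library) computed from the transcript table, NFKBIA, which encodes IκBα, ranked first in every group, at 108 ± 3.1, 101 ± 4.4, 138 ± 4.9, 151 ± 5.1 and 138 ± 7.4 TPM in LY500307, vehicle, add-back, knockout and control cells (SD, n = 3 each). CXCL16, a membrane-bound chemokine that also acts as a scavenger receptor, came next under LY500307 and vehicle (71.7 ± 6.2 and 72.7 ± 6.7 TPM), TRAF2 in add-back and knockout cells (63.0 ± 1.8 and 70.2 ± 3.6 TPM) and BCL2L1 in control cells (70.3 ± 11 TPM). The libraries of NFKBIA did not overlap with those of the next member in any group. Below these the order was close. In control cells TRAF2, REL and CXCL16 lay between 47.9 and 57.4 TPM in single libraries, and their ranges overlapped.

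The 13 members that could not be tested were mostly secreted factors. CSF2 and CXCL5 had 1 read in all 15 libraries, CCL2 had 2, TNF had 4, CXCL3 and IL6 had 5 and CXCL1 had 7. CCL5 and CX3CL1 had 19 reads each, CCL28 had 28, CXCL2 had 38, CSF3 had 42 and LTB had 73. A count of 0 summed over a group allowed up to 0.0584, 0.0615, 0.0609, 0.0688 and 0.0696 CPM (counts scaled to library size) in LY500307, vehicle, add-back, knockout and control cells. These floors correspond to 3 counts and cover counting error only. TNF, the cytokine that is the classical inducer of the pathway, had 1, 1, 1, 0 and 1 read over the 3 libraries of LY500307, vehicle, add-back, knockout and control cells, so no difference was detectable at this depth. Between 3.09% and 18.2% of the 30-base stretches of CXCL1, CXCL2 and CXCL3 transcripts also occur in another of the 3, so the few reads of these neutrophil chemokines may have been divided among them. LTB, a membrane-anchored lymphotoxin, had 28 reads in knockout and 5 in control cells, a ratio of CPM of 5.54 with an exact 95% interval of counting error from 2.11 to 18.4, which says nothing of the spread between libraries.

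Library totals ran from 12614074 to 19390378 expected counts, and the biological coefficient of variation was 4.99%. ESR2 stood at 34.1, 33.8 and 30.6 CPM in add-back libraries and at 5.77, 3.04 and 4.41 CPM in knockout libraries, against 6.44, 4.79 and 6.07 CPM in control libraries. Knockout and control libraries overlapped (log2 fold change -0.38, not called). ESR2 was called lower in knockout cells in 4 of 15 alternatives, with DESeq2 (adjusted p = 0.043), without a filter on low counts (adjusted p = 0.0291), without control replicate 2 (adjusted p = 0.0344) and without knockout replicate 1 (-0.60, adjusted p = 0.00992). Gene disruption can leave the transcript in place, so these RNA levels do not settle the knockout label. Under LY500307 ESR2 was at 45.0, 44.2 and 42.4 CPM, against 41.7, 45.9 and 48.0 CPM with vehicle. Summed epithelial markers (EPCAM, CDH1, KRT8, KRT18, KRT19 and ERBB2) reached 6322 to 10020 CPM in every library, so the epithelial label held in all 5 groups.

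**Figure D2:**
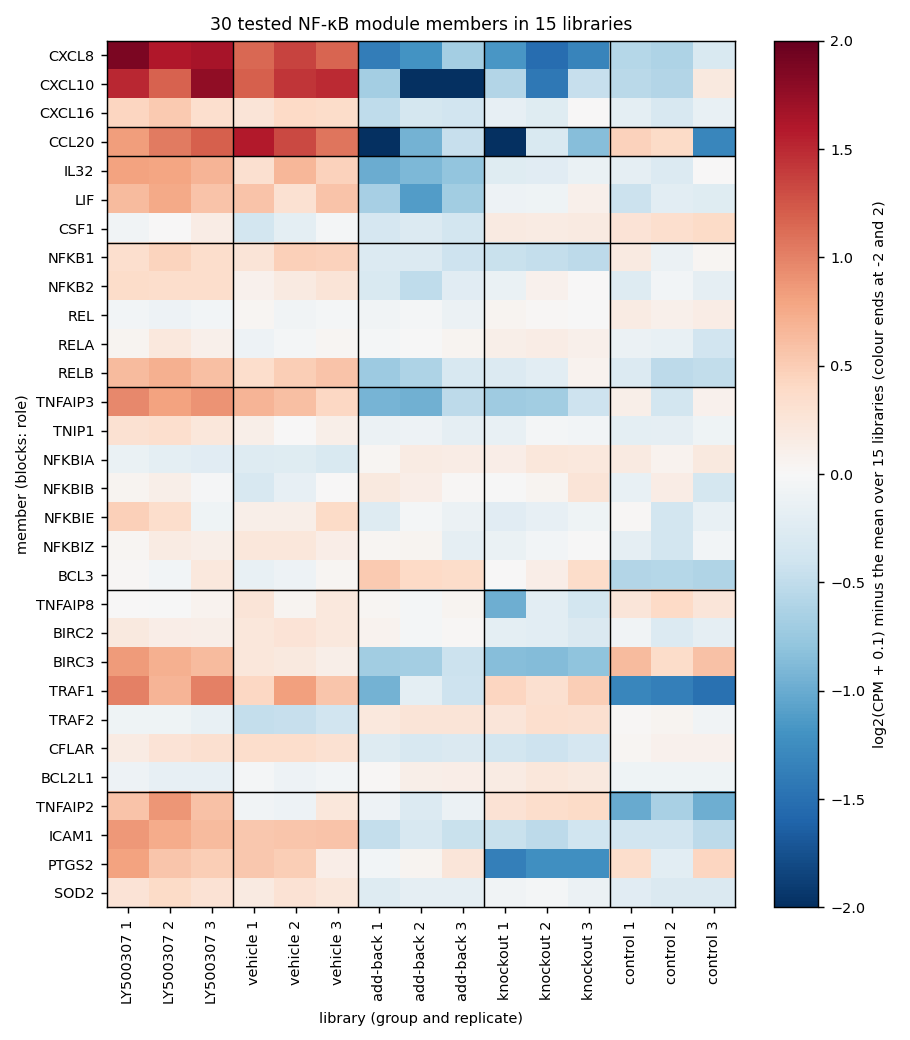
Colour gives log2(CPM + 0.1) of each of 30 tested members (rows, in blocks of 1 role) in each of 15 libraries (columns, in 5 groups), minus the member's mean over the libraries. The tested chemokines at the top are highest in all 6 LY500307 and vehicle libraries, and PTGS2 is lowest in the 3 knockout libraries.

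Knockout against control asked what differed once ERβ was lost. PTGS2, BIRC3, CXCL8, TNFAIP8 and TNFAIP3 fell in knockout cells, TNFAIP2, TRAF1 and BCL3 rose, and the cytokines and the IκB genes NFKBIA, NFKBIB and NFKBIE were not called. Among these, CSF1 was called lower with the GC content and length offsets (-0.42, adjusted p = 4.7e-05) and with the replicate block (-0.16, adjusted p = 0.0494), and NFKBIB higher without control replicate 2 (0.36, adjusted p = 0.0197). Of the 30 members tested, 8 were higher and 8 lower, 53.3% in all, at an adjusted p under 0.05 (edgeR quasi-likelihood test, Benjamini-Hochberg over all genes tested). Of all 19516 genes tested, 46% were called, 23.4% higher and 22.6% lower, so the share among members was near the background. The median log2 fold change was 0.02 over the members and -0.0049 over all genes. The even split depended on the setting. With the GC content and length offsets BCL3, TRAF2 and RELA lost their higher calls and RELB turned to lower. CSF1 and TNIP1 were then called lower and NFKBIZ higher, and REL lost its lower call. Summed leukocyte markers were at 2.57 to 2.85 CPM in knockout libraries and 0.530 to 0.929 CPM in control libraries, with CD68 higher by 3.19 (adjusted p = 1.24e-06). Of the endothelial markers CDH5 was higher by 1.39 (adjusted p = 0.00941). VWF went the other way (-0.31) and was not called. It was called lower with the offsets (-0.56, adjusted p = 0.0125) and without control replicate 3. Summed endothelial markers overlapped, at 3.61 to 4.49 CPM in knockout and 2.97 to 4.715 CPM in control libraries. The part of these markers in the result was not tested.

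PTGS2 encodes cyclooxygenase-2, which makes prostaglandin precursors. Its level was 6.48, 7.15 and 7.23 CPM in knockout libraries, against 21.7, 14.6 and 22.7 CPM in control libraries. The 3 knockout libraries lay close together, below every control library, and the control libraries spread more widely. The log2 fold change was -1.50 ± 0.17 (SE, adjusted p = 3.98e-07), and it ran from -1.68 to -1.34 under 15 alternatives.

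BIRC3, a ubiquitin ligase (cIAP2) that protects cells from TNF-induced death, was at 13.2, 12.9 and 13.6 CPM in knockout libraries, against 36.7, 30.7 and 35.8 CPM in control libraries. The groups did not overlap. The fold change was -1.38 ± 0.09 on the log2 scale (adjusted p = 1.67e-10). BIRC2, its neighbour on chromosome 11 and closest relative (cIAP1), was not called (log2 fold change -0.06 ± 0.05, adjusted p = 0.361).

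CXCL8 encodes interleukin-8, the neutrophil chemokine. It was at 2.00, 1.52 and 1.78 CPM in knockout libraries, against 3.03, 2.93 and 3.66 CPM in control libraries, with no overlap, and the log2 fold change was -0.86 ± 0.20 (adjusted p = 0.00176). TNFAIP8, which codes for a regulator of cell death, was at 2.78, 4.79 and 4.29 CPM in knockout libraries, against 6.59, 7.36 and 6.57 CPM in control libraries. Knockout replicate 1 was the lowest of the 6, and all knockout libraries lay below all control libraries. The log2 fold change was -0.79 ± 0.15 (adjusted p = 0.000179).

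Among the members that fell by less, TNFAIP3 encodes A20, the ubiquitin-editing enzyme that turns the pathway off, NFKB1 the precursor of the p50 subunit and CFLAR the caspase-8 inhibitor c-FLIP. Their log2 fold changes were -0.57 ± 0.16 for TNFAIP3 (adjusted p = 0.00543), -0.53 ± 0.07 for NFKB1 (adjusted p = 6.05e-06) and -0.45 ± 0.04 for CFLAR (adjusted p = 7.05e-08). Among the 40 tested genes nearest to CFLAR on chromosome 2 the median log2 fold change was -0.55, with 24 called lower and 0 higher, and their part in the result was not tested.

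TNFAIP2, a gene first known as induced by TNF, was at 25.4, 26.7 and 27.1 CPM in knockout libraries, against 10.4, 13.3 and 10.6 CPM in control libraries. Every knockout library was above every control library (log2 fold change 1.21 ± 0.11, adjusted p = 4.81e-08). Of its 40 nearest tested genes on chromosome 14, 26 were higher and 0 lower, with a median log2 fold change of 0.39. The part of these neighbours was not tested.

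BCL3, an atypical IκB protein that works in the nucleus with p50 and p52, was at 11.8, 13.015 and 15.2 CPM in knockout libraries, against 7.80, 7.93 and 7.77 CPM in control libraries. The groups did not overlap (log2 fold change 0.77 ± 0.11, adjusted p = 6.21e-06). With offsets that remove each library's trend on GC content and transcript length, the value of this gene, at 67.1% GC the member richest in G and C, was -0.05 (adjusted p = 0.726). The same offsets ended the calls of TRAF2 (0.30 ± 0.04 without them, -0.07 with them), RELA (0.34 ± 0.06 and 0.08) and REL (-0.12 ± 0.04 and -0.0023) and turned that of RELB (0.31 ± 0.12 and -0.37). RELB and REL also lost their calls under many other alternatives, keeping them in 4 and 7 of 15. BCL2L1, which encodes Bcl-xL, and SOD2 completed the 8 higher members, at 0.28 ± 0.04 (adjusted p = 1.87e-05) and 0.19 ± 0.04 (adjusted p = 0.00127). In TPM BCL2L1 went the other way, without overlap, at 52.6 ± 4.6 in knockout and 70.3 ± 11 in control cells (SD, n = 3 each). An 820-base transcript took 2.5% of its counts in knockout and 19.6% in control cells, so its direction depended on the measure. TRAF1, an adaptor of TNF receptors, averaged just under the 1 CPM set for naming in this comparison and was picked after its values were seen. It was at 0.998, 0.913 and 1.04 CPM in knockout libraries, against 0.227, 0.214 and 0.190 CPM in control libraries, which is 43 reads against 9 (log2 fold change 2.19 ± 0.37, adjusted p = 6.09e-05).

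**Figure D3:**
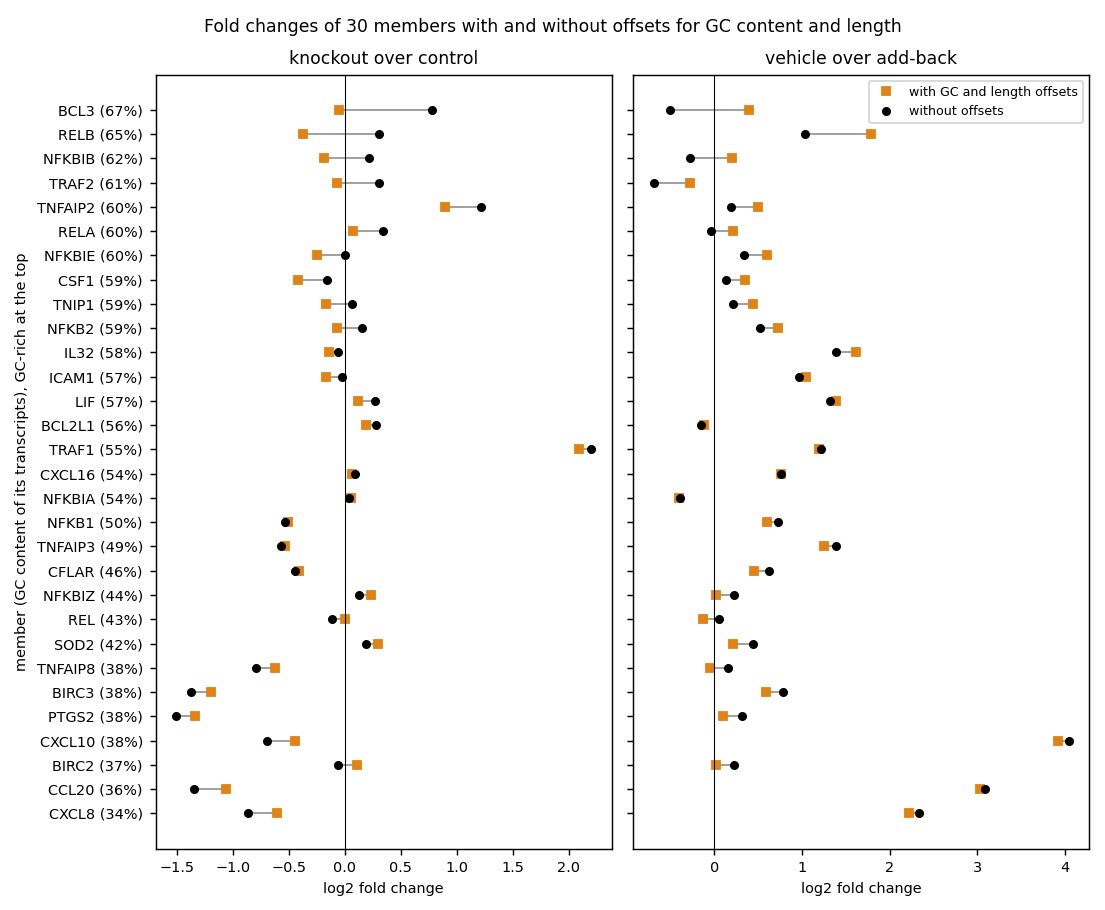
Changes of 30 members on the log2 scale, ordered by the GC content of their transcripts with the GC-rich at the top, as fitted (circles) and after offsets on GC content and length (squares), for knockout over control and for vehicle over add-back. The squares of the GC-rich BCL3 and RELB lie far from their circles in both panels, while PTGS2 and BIRC3 stay below 0 in the left panel.

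Add-back cells were next set against knockout cells in the same medium to ask what exogenous ERβ altered. PTGS2 rose, the cytokines IL32, LIF and CSF1 fell, and BIRC3 and CXCL8, which had been lower in knockout than in control cells, were not called. Of 30 members 3 were higher and 8 lower, 36.7% in all, against 10.4% higher, 9.19% lower and 19.6% in all over the 19516 genes. With upper-quartile factors 3 members were higher and 11 lower, and the share of higher genes among all calls was 42% in place of 53.1%. The median log2 fold change was -0.08 over the members and -0.0070 over all genes. This comparison shares the knockout libraries with knockout against control, and opposite signs in both can come from the knockout libraries alone. CD68 was lower by -1.11 (adjusted p = 0.00599) and the fibroblast marker COL1A1 higher by 0.57 (adjusted p = 0.0405), and their part was not tested.

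PTGS2 was at 16.2, 17.6 and 20.1 CPM in add-back libraries, against 6.48, 7.15 and 7.23 CPM in knockout libraries. All add-back libraries lay above all knockout libraries, and they overlapped with the control libraries. The log2 fold change was 1.37 ± 0.17 over knockout cells (adjusted p = 6.4e-06) and -0.14 ± 0.14 over control cells (adjusted p = 0.443).

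LIF, a cytokine of the interleukin-6 family, was at 5.82, 4.20 and 5.69 CPM in add-back libraries, against 8.62, 8.75 and 9.92 CPM in knockout libraries. IL32, a cytokine that induces other inflammatory cytokines, was at 6.02, 6.41 and 6.90 CPM in add-back libraries, against 10.2, 10.2 and 10.96 CPM in knockout libraries. CSF1, the macrophage growth factor, was at 23.8, 24.8 and 23.3 CPM in add-back libraries, against 34.3, 33.9 and 34.1 CPM in knockout libraries. In none of these 3 genes did the groups overlap. The log2 fold changes were -0.81 ± 0.13 for LIF (adjusted p = 0.000149), -0.70 ± 0.11 for IL32 (adjusted p = 0.000141) and -0.51 ± 0.07 for CSF1 (adjusted p = 4.02e-05). All 3 testable cytokines were thus lower.

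Smaller falls were seen for TNFAIP2 (-0.51 ± 0.10, adjusted p = 0.00133), the p100 precursor gene NFKB2 (-0.33 ± 0.07, adjusted p = 0.00399) and CXCL16 (-0.29 ± 0.07, adjusted p = 0.00714, up to 0.0865 without knockout replicate 3 or add-back replicate 1). Of the 40 tested genes nearest to TNFAIP2, 18 were lower and 0 higher, with a median of -0.18, and their part was not tested. The fall of NFKB2 is that of the gene total. Unscaled counts of its coding transcript summed to 311 in add-back and 202 in knockout cells, with 0 in knockout replicate 1. Those of a retained-intron transcript summed to 172 and 212. RELB (-0.43 ± 0.12, adjusted p = 0.0173) lost its call without knockout replicate 3, add-back replicate 1 or add-back replicate 2, and TRAF1 (-1.01 ± 0.30, adjusted p = 0.0281) kept its own in 9 of 15 alternatives. BIRC2 rose (0.25 ± 0.05, adjusted p = 0.00188), whereas BIRC3 gave 0.24 ± 0.09 and an adjusted p of 0.079. TNFAIP8 rose by 0.51 ± 0.15 (adjusted p = 0.0207), but the adjusted p was 0.126 without knockout replicate 1 and 0.0504 without add-back replicate 3. None of the 7 genes of IκB proteins and other feedback regulators was called at an adjusted p under 0.05 in the fit over all 15 libraries with TMM factors, where 1, BCL3, had an unadjusted p under 0.05 (0.0143). BCL3 was called higher with RLE factors (0.27, adjusted p = 0.0477), without a filter on low counts (adjusted p = 0.0388) and without knockout replicate 3 (0.38, adjusted p = 0.0114).

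**Figure D4:**
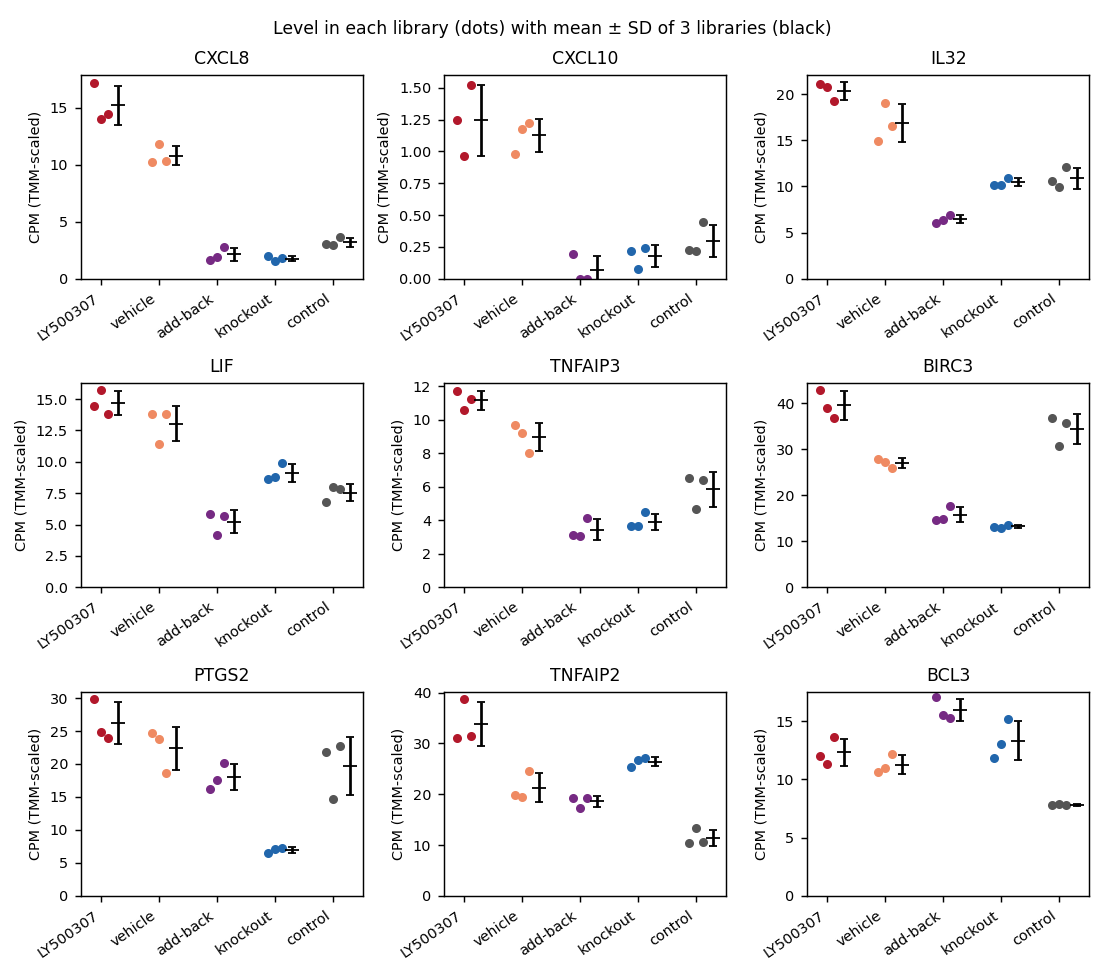
CPM of 9 members in each library (dots) with the mean and SD of 3 libraries (black), for LY500307, vehicle, add-back, knockout and control cells from left to right. BIRC3 is near 13 to 18 CPM in both add-back and knockout cells and above 30 CPM in control cells, while PTGS2 is low in knockout cells alone of the 5 groups.

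Add-back against control asked how far cells with exogenous ERβ stood from cells with the endogenous receptor. The chemokines CXCL8, CXCL10 and CXCL16 and the cytokines IL32, LIF and CSF1 were all lower in add-back cells, BIRC3 and TNFAIP3 were lower too, and TNFAIP2 and BCL3 were higher. The calls of the cytokines held under all 15 alternatives, whereas those of the 3 chemokines were each lost under several. Of 30 members 7 were higher and 11 lower, 60% in all, against 23.2% higher, 22.7% lower and 45.8% in all over the 19516 genes. The median log2 fold change was -0.13 over the members and -0.02 over all genes. With the GC content and length offsets RELA, BCL3, BCL2L1 and TRAF1 lost their higher calls and TRAF2 turned to lower. CXCL8, CXCL10 and REL then lost their lower calls. TNIP1, NFKB2 and RELB were called lower with the offsets, and NFKBIZ and SOD2 higher. The control libraries are those of knockout against control and the add-back libraries those of add-back against knockout, so these 3 comparisons are not independent. CD68 (2.08, adjusted p = 0.000736) and COL1A1 (0.78, adjusted p = 0.00254) were higher in add-back cells, and their part was not tested.

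BIRC3 was at 14.7, 14.9 and 17.6 CPM in add-back libraries, against 36.7, 30.7 and 35.8 CPM in control libraries, without overlap (log2 fold change -1.13 ± 0.08, adjusted p = 2e-09). TNFAIP3 was at 3.11, 3.04 and 4.15 CPM in add-back libraries, against 6.51, 4.64 and 6.38 CPM in control libraries. The highest add-back library was below the lowest control library (-0.77 ± 0.16, adjusted p = 0.000445). The log2 fold changes of the cytokines were -0.76 ± 0.11 for IL32 (adjusted p = 1.43e-05), -0.66 ± 0.07 for CSF1 (adjusted p = 3.13e-07) and -0.54 ± 0.13 for LIF (adjusted p = 0.00253).

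TNFAIP2 was at 19.3, 17.3 and 19.2 CPM in add-back libraries, against 10.4, 13.3 and 10.6 CPM in control libraries (0.70 ± 0.12, adjusted p = 6.65e-05, and 0.36 with the offsets for GC content and length), between control and knockout cells. Of its 40 nearest tested genes 18 were higher and 1 lower, with a median of 0.19, and their part was not tested. BCL3 was at 17.1, 15.6 and 15.3 CPM in add-back libraries, against 7.80, 7.93 and 7.77 CPM in control libraries. It was 1.03 ± 0.10 higher on the log2 scale (adjusted p = 1.36e-07), and 0.13 with the offsets for GC content and length (adjusted p = 0.315). CXCL8 was lower by -0.59 ± 0.19 (adjusted p = 0.0161), a call that was lost with the offsets (adjusted p = 0.16) and without control replicate 3, add-back replicate 1 or add-back replicate 2. CXCL10 had 3 reads in add-back and 13 in control cells, and its call was lost with DESeq2, with the offsets and without any 1 of 3 libraries (control replicate 3, add-back replicate 2 or add-back replicate 3). CXCL16 differed by -0.20 ± 0.07 (adjusted p = 0.0339) and kept its call in 9 of 15 alternatives, TRAF1 (1.19 ± 0.41, adjusted p = 0.0492) in 5 of 14.

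Vehicle against add-back compared cells with the same exogenous receptor that differed in medium, serum, time in culture and DMSO together, which cannot be told apart. ESR2 itself was higher in vehicle cells (log2 fold change 0.46, adjusted p = 0.000117), a call kept in 15 of 15 alternatives, and its part was not tested. CXCL10, CCL20 and CXCL8 rose most. These 3 chemokines and CXCL16 were higher in vehicle cells, as were IL32, LIF, TNFAIP3, RELB, NFKB1, NFKB2, ICAM1, BIRC3 and CFLAR, while NFKBIA, TRAF2, BCL3 and BCL2L1 were lower. CXCL10 and CCL20 passed the filter on low counts only through the vehicle and LY500307 groups. That they could be tested thus depended on groups where they were high, and most other listed chemokines could not be tested. Of 30 members 18 were higher and 4 lower, 73.3% in all, against 26.4% higher, 21.6% lower and 48.1% in all over the 19516 genes. The median log2 fold change was 0.39 over the members and 0.01 over all genes, and 13 of the 14 called members with a change of at least 1.5-fold were higher. The add-back libraries are those already set against knockout and control cells, so opposite signs here and there can come from the add-back libraries alone.

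CXCL8 was at 10.3, 11.8 and 10.4 CPM in vehicle libraries, against 1.68, 1.93 and 2.81 CPM in add-back libraries. The groups were far apart (log2 fold change 2.34 ± 0.15, adjusted p = 3.27e-10). CXCL10, which encodes an interferon-inducible chemokine that attracts T cells, was at 0.980, 1.17 and 1.23 CPM in vehicle libraries, against 0.194, 0 and 0 CPM in add-back libraries. That was 55 reads against 3, all 3 in add-back replicate 1, a ratio of CPM of 18.5 with an exact 95% interval of counting error from 6.01 to 92.6 (adjusted p = 1.65e-05). CCL20, the ligand of CCR6, had 45 reads in vehicle and 5 in add-back libraries, a ratio of 9.09 with an interval from 3.62 to 29.3 (log2 fold change 3.09 ± 0.63, adjusted p = 0.000429), and it was named after its values were seen because its level did not reach 1 CPM.

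IL32 was at 14.96, 19.1 and 16.6 CPM in vehicle libraries, against 6.02, 6.41 and 6.90 CPM in add-back libraries (1.39 ± 0.10, adjusted p = 1.52e-09). LIF was at 13.8, 11.4 and 13.8 CPM in vehicle libraries, against 5.82, 4.20 and 5.69 CPM in add-back libraries (1.32 ± 0.12, adjusted p = 3.58e-08). Neither gene's groups overlapped, and the third testable cytokine, CSF1, was not called (0.13 ± 0.07, adjusted p = 0.145). CSF1 was called higher with the offsets for GC content and length (0.35, adjusted p = 0.00067) and without vehicle replicate 1 (0.18, adjusted p = 0.046).

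TNFAIP3 was at 9.67, 9.18 and 8.04 CPM in vehicle libraries, against 3.11, 3.04 and 4.15 CPM in add-back libraries (1.39 ± 0.14, adjusted p = 1.71e-07). NFKBIA, the other main brake on the pathway, went the other way, at 96.1, 97.4 and 93.3 CPM in vehicle libraries, against 119, 129 and 127 CPM in add-back libraries (-0.39 ± 0.04, adjusted p = 4.87e-07). The groups overlapped in neither gene. A promoter κB match was printed above for both.

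Of the Rel genes, RELB, whose product pairs with p52 in the noncanonical pathway, was at 12.3, 13.6 and 14.4 CPM in vehicle libraries, against 5.76, 6.24 and 7.67 CPM in add-back libraries (1.03 ± 0.11, adjusted p = 3.33e-07, and 1.79 with the offsets for GC content and length). NFKB1 and NFKB2 rose by 0.72 ± 0.07 (adjusted p = 5.25e-08) and 0.52 ± 0.07 (adjusted p = 6.98e-06). RELA and REL were not called, at -0.04 ± 0.06 and 0.05 ± 0.04. With the offsets RELA was at 0.22 and REL at -0.13, both past the threshold.

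ICAM1, the adhesion molecule that leukocyte integrins bind, was at 17.2, 17.6 and 17.8 CPM in vehicle libraries, against 8.54, 9.502 and 8.69 CPM in add-back libraries (0.97 ± 0.08, adjusted p = 8.68e-09). TRAF1 was at 0.980, 1.33 and 1.09 CPM in vehicle libraries, against 0.324, 0.608 and 0.511 CPM in add-back libraries (1.22 ± 0.29, adjusted p = 0.00167). In both genes every vehicle library was above every add-back library. Among the survival genes BIRC3 rose by 0.78 ± 0.08 (adjusted p = 2.41e-07) and CFLAR by 0.62 ± 0.04 (adjusted p = 3.97e-10), while BCL2L1 fell (-0.15 ± 0.04, adjusted p = 0.00397). In TPM BCL2L1 did not fall, at 59.5 ± 10 in vehicle and 54.1 ± 10 in add-back cells (SD, n = 3 each), with overlapping libraries. SOD2 rose by 0.44 ± 0.04 (adjusted p = 7.16e-08, and 0.22 with the offsets). TNIP1, NFKBIZ and BIRC2 rose by 0.22 each, of which NFKBIZ kept its call in 5 of 15 alternatives and BIRC2 lost its call with the offsets (0.02, adjusted p = 0.796).

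TRAF2, the adaptor that carries cIAP proteins to TNF receptors, was lower in vehicle cells (-0.68 ± 0.05, adjusted p = 3.41e-10), and by -0.27 with the offsets (adjusted p = 3.85e-06). Of its 40 nearest tested genes on chromosome 9, 31 were lower and 1 higher, with a median of -0.75, and in knockout against control 29 were higher and 1 lower, with a median of 0.59. Their part in the values of TRAF2 was not tested. BCL3 was lower by -0.51 ± 0.09 (adjusted p = 0.00018) but at 0.40 with the offsets (adjusted p = 0.00136).

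Among members with a promoter window, 16 tested members with a κB match gave 12 higher, 2 lower and 2 not called in vehicle against add-back cells, and their median change was 0.67 on the log2 scale. The 9 tested members with no match gave 3 higher, 2 lower and 4 not called, with a median of 0.19. In knockout against control the members with a match gave 1 higher and 6 lower, with a median of -0.09, and those with none 6 higher and 2 lower, with a median of 0.28. Over all genes 26.4% were higher and 21.6% lower in vehicle against add-back cells, and 23.4% and 22.6% in knockout against control. No difference between these sets was tested. CXCL10 and CCL20, both with a match, passed the filter on low counts only through the vehicle and LY500307 groups.

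Markers of other cell types also moved between vehicle and add-back cells. Summed leukocyte markers were at 6.66 to 7.26 CPM in vehicle libraries and 1.10 to 1.33 CPM in add-back libraries. Nearly all of this was CD68, a lysosomal protein used as a macrophage marker, at 6.10 ± 0.42 CPM in vehicle cells and 0.709 ± 0.17 CPM with add-back in ordinary medium (SD, n = 3 each). PTPRC, CD3E, CD14, LYZ and MS4A1 each averaged at most 0.350 CPM in both groups. Endothelial markers summed to 10.3 to 10.6 CPM in vehicle libraries and 3.32 to 3.43 CPM in add-back libraries, mostly VWF, and fibroblast markers to 2.19 to 3.40 CPM in vehicle libraries and 3.90 to 4.58 CPM in add-back libraries. The part of these markers in the result was not tested. In bulk RNA fewer cells with a transcript and less transcript per cell cannot be told apart.

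**Figure D5:**
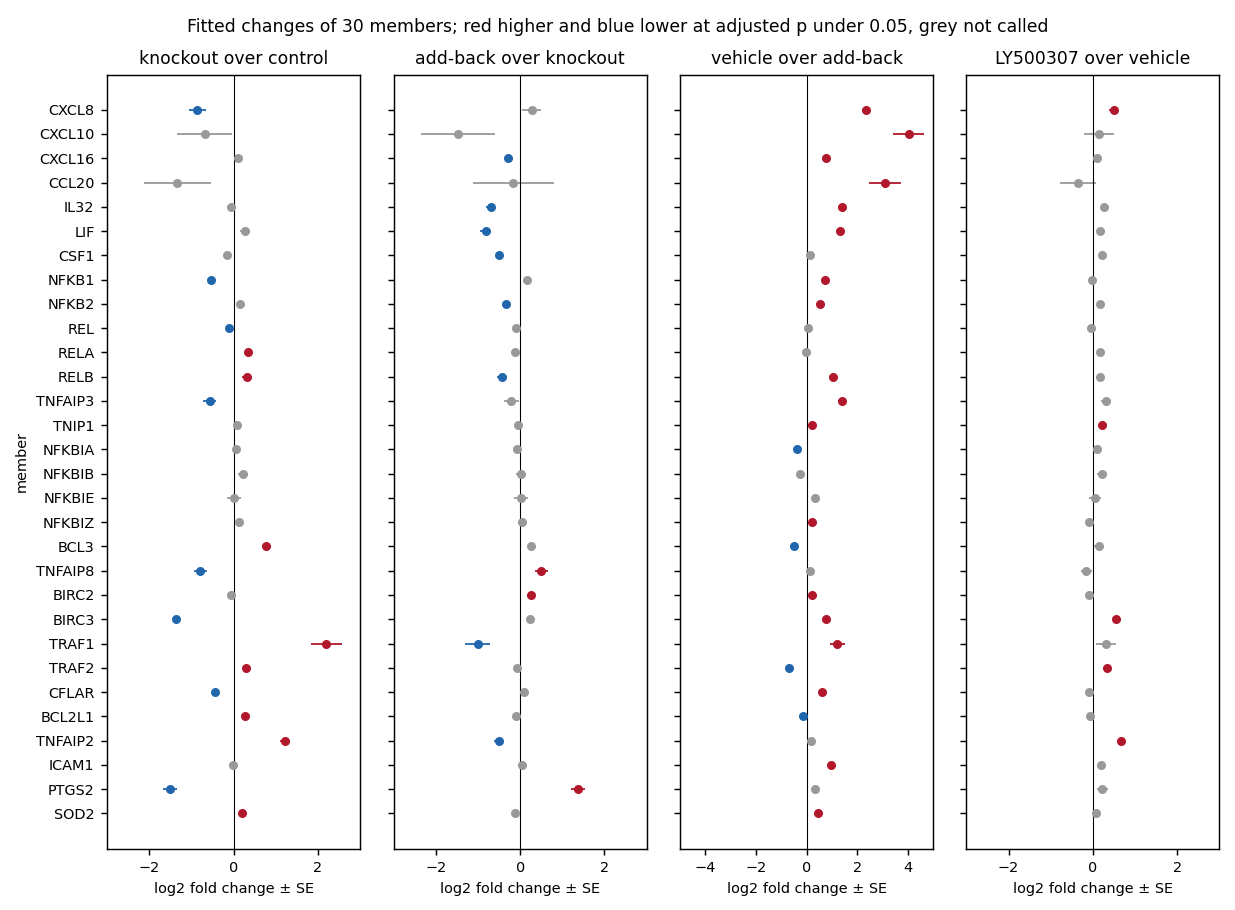
Fitted log2 fold changes with SE of 30 members in 4 comparisons, red higher and blue lower at an adjusted p under 0.05, grey not called, with a wider axis for vehicle over add-back. The 18 red points of vehicle over add-back include all 4 tested chemokines, whereas LY500307 over vehicle has 5 red and 0 blue points. CXCL10 and CCL20 passed the filter on low counts only through the vehicle and LY500307 groups.

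LY500307 against vehicle asked what the agonist changed in cells with exogenous ERβ under otherwise equal conditions. TNFAIP2, BIRC3, CXCL8, TRAF2 and TNIP1 were higher with LY500307, and 0 members were lower at an adjusted p under 0.05 with edgeR, nor was any lower at an unadjusted p under 0.05. Of 30 members 5 were higher and 0 lower, 16.7%, against 4.77% higher, 2.35% lower and 7.12% in all over the 19516 genes. DESeq2 called 4 members higher and 0 lower. The median log2 fold change was 0.17 over the members and -0.02 over all genes. With the offsets for GC content and length the median of the members was smaller, and that of all genes was 0.01. Several GC-rich members moved down, such as RELA (0.16 to 0.03), RELB (0.17 to -0.14) and BCL3 (0.13 to -0.23). Others moved up, such as CXCL8 (0.49 to 0.60) and PTGS2 (0.22 to 0.32).

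TNFAIP2 was at 31.1, 38.8 and 31.5 CPM in LY500307 libraries, against 19.8, 19.4 and 24.5 CPM in vehicle libraries. The groups did not overlap, and this was the one member called with at least 1.5-fold (log2 fold change 0.67 ± 0.10, adjusted p = 0.000573). With the offsets for GC content and length TNFAIP2 was at 0.52, under 1.5-fold, and BIRC3 at 0.65, over it. BIRC3 was at 42.8, 38.9 and 36.7 CPM in LY500307 libraries, against 27.9, 27.2 and 25.8 CPM in vehicle libraries, also without overlap (0.55 ± 0.07, adjusted p = 0.000302). TRAF2 was at 66.4, 66.1 and 63.6 CPM in LY500307 libraries, against 50.4, 50.9 and 54.2 CPM in vehicle libraries (0.34 ± 0.05, adjusted p = 0.00035). The calls of these 3 genes held under all 15 alternatives, and the value of TRAF2 was 0.16 with the offsets for GC content and length. Of the 40 tested genes nearest to TRAF2, 13 were higher and 0 lower with LY500307, with a median of 0.31, and their part was not tested.

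CXCL8 was at 17.1, 14.0 and 14.5 CPM in LY500307 libraries, against 10.3, 11.8 and 10.4 CPM in vehicle libraries (0.49 ± 0.11, adjusted p = 0.0134). The groups did not overlap, but the adjusted p was 0.0698 without vehicle replicate 1 and 0.0821 without LY500307 replicate 1. TNIP1, which encodes a partner of A20, was higher by 0.21 ± 0.05 (adjusted p = 0.0219), a call lost with the offsets (adjusted p = 0.408), with DESeq2 (adjusted p = 0.0767) and without either of the first 2 libraries of each group. The other chemokines and the cytokines were not called, among them CXCL10 (0.14 ± 0.35, adjusted p = 0.867), CXCL16 (0.09 ± 0.07, adjusted p = 0.479), IL32 (0.27 ± 0.09, adjusted p = 0.0665) and CSF1 (0.22 ± 0.07, adjusted p = 0.0605). IL32 was called higher in 3 of 15 alternatives, among them without vehicle replicate 2 (0.38, adjusted p = 0.0413), and CSF1 in 4 of 15, among them with the replicate block (adjusted p = 0.0464) and without vehicle replicate 3 (0.32, adjusted p = 0.0055).

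Genes that lie upstream of NF-κB were taken from a list of 50 receptors, adaptors, kinases and ubiquitin enzymes, of which 46 were tested. In knockout against control 22 were higher and 10 lower, 69.6% in all against 46% of all genes, but 13 higher and 7 lower with the offsets for GC content and length. The largest changes were those of receptors, namely TLR2 (3.05 CPM in knockout and 0.522 CPM in control cells, log2 fold change 2.50 ± 0.38, adjusted p = 2.15e-05), the interleukin-1 receptor gene IL1R1 (78.2 CPM in knockout and 22.0 CPM in control cells, 1.83 ± 0.05, adjusted p = 1.68e-15), TNFRSF11A, which encodes RANK (1.60 ± 0.17), and IL17RC (1.36 ± 0.18). In add-back against knockout 2 were higher and 10 lower, 26.1% against 19.6% of all genes, with TLR2 averaging 0.740 CPM across add-back libraries, against 3.05 CPM across knockout libraries (-2.05 ± 0.35, adjusted p = 0.00028) and falls of TNFRSF11A (-0.62 ± 0.15), of MAP3K14, the kinase NIK of the noncanonical pathway (-0.58 ± 0.09), and of IL1R1 (-0.37 ± 0.04). These 12 calls became 7 without knockout replicate 2, 7 without add-back replicate 2 and 7 with DESeq2.

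In add-back against control 17 of the 46 were higher and 10 lower, 58.7% against 45.8% of all genes, led by IL17RC (1.47 ± 0.17), IL1R1 (1.46 ± 0.05), TLR6 (-0.97 ± 0.11) and TNFRSF11A (0.97 ± 0.18). In vehicle against add-back 25 were higher and 13 lower, 82.6% against 48.1% of all genes, and 20 and 7 with the offsets. The largest rises were those of TLR2 (2.06 ± 0.34), IL18R1 (1.92 ± 0.25), TLR6 (1.87 ± 0.10) and TLR1 (1.51 ± 0.23). In LY500307 against vehicle 6 were higher and 3 lower, 19.6% against 7.12% of all genes, but 1 and 0 with the offsets, and between 0 and 2 were called without any 1 of the first 2 libraries of either group. TICAM1 (0.56 ± 0.13), TNFRSF12A (0.38 ± 0.11), SHARPIN (0.31 ± 0.07) and IRAK1 (0.23 ± 0.05) led that list, and none of these 4 passed with the offsets.

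Of 18 listed chemokine and cytokine receptors, 8 passed the filter and 10 did not. CXCR1 and CXCR2, which bind CXCL8, had a mean of at most 0.0403 CPM in any group, and CCR6, the receptor of CCL20, had 0 reads. CXCR6, which binds CXCL16, was at 4.96 ± 0.41, 5.10 ± 0.41, 5.57 ± 0.41, 5.75 ± 0.048 and 7.64 ± 0.84 CPM in LY500307, vehicle, add-back, knockout and control cells (SD, n = 3 each). CXCR4, on the list although its ligand CXCL12 is not a member, was at 8.61 ± 0.66 CPM in vehicle and 0.907 ± 0.12 CPM in add-back cells, a log2 difference of 3.23 (adjusted p = 3.38e-12). The receptor subunits of LIF, LIFR and IL6ST, were at 23.7 to 32.0 and 157 to 219 CPM as group means.

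Some gene totals cover more than 1 product. In BIRC3 a 624-base transcript annotated as processed, without a coding frame, took 45.2% to 66.7% of the counts of the gene over the groups, and the 5197-base coding transcript took 26.9% to 52.3%. Unscaled counts of the coding transcript summed to 165 in add-back and 183 in knockout cells, those of the processed one to 409 and 158. With LY500307 and vehicle they were 515 and 358 for the coding and 897 and 444 for the processed transcript. Retained-intron transcripts took 33.1% to 53.0% of the counts of NFKB2 and 9.13% to 31.0% of those of IL32 over the groups. In SOD2, which encodes the mitochondrial superoxide dismutase, 79.2% to 85.8% of counts were assigned to a transcript annotated for nonsense-mediated decay. SOD2 overlaps WTAP on the opposite strand (86.9 CPM on average), NFKBIB overlaps SIRT2 (10.5 CPM) and CXCL16 overlaps MED11 (11.4 CPM). The library kit keeps the strand, but whether counting used it is not given in the sources used here, so reads of these pairs cannot be told apart.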

How the data were processed

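Per the labels, total RNA of KPL4 cells was depleted of ribosomal RNA and made into stranded libraries. Per the submitters' processing notes, FastQC, Trim Galore, GSNAP and RSEM were used with GRCh38, in versions not given in the sources used here. The values are expected counts per gene and per transcript that the authors deposited, in 5 groups of 3 libraries. Gene counts were rounded, filtered with filterByExpr, scaled by TMM factors and fitted over all 15 libraries with edgeR 4.0.16 (R 4.3.3), whose quasi-likelihood test gave p-values adjusted by the Benjamini-Hochberg method over 19516 genes. Entries were named by GENCODE identifiers, and TPM came from transcript counts and lengths. Simulated counts were made with and without a GC trend. In a single setting of these, 160 of 200 changed genes were recovered for knockout against control, with 4 false calls. The results of the other settings are not given here. That count does not show how many calls were false in the real libraries, where the GC content and length offsets changed calls. Values in every library are given for members with a mean of at least 1 CPM in a compared group that were called with an absolute log2 fold change of at least 0.58, at most 8 per comparison, and for at most 4 upstream genes the means. The members and lists were chosen with earlier results of these data known. Alternatives were other scalings and filters, a replicate block, GC content and length offsets, DESeq2 1.42.0, limma-voom (limma 3.58.1), each comparison's 6 libraries alone and each library left out.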

Additional observations from a re-analysis of the deposited data

How the results depend on the processing

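Over 2233 values of members under an alternative, 2086 kept their side of the threshold, 81 lost a call, 56 gained one and 10 turned with a call in at least 1 of the 2 fits compared. Of the 2086, 47 had the opposite sign with no call in either fit, 15 of them with the offsets. All 10 turned with the GC content and length offsets. In knockout against control TNIP1 was then at -0.16, RELB at -0.37, TRAF2 at -0.066 and BCL3 at -0.054. In add-back against control TNIP1 was at -0.22, RELA at -0.050 and TRAF2 at -0.16. In vehicle against add-back REL was at -0.13, RELA at 0.22 and BCL3 at 0.40. The upstream genes SHARPIN (-0.023) and IRAK1 (-0.013) turned in LY500307 against vehicle. The offsets use GC content and length, known for 19089 of 19516 genes, and the cause of these trends was not tested. In LY500307 against vehicle 1389 genes were called, 327 with the offsets and 299 to 1844 with 1 library left out (403 without vehicle replicate 1, 299 without vehicle replicate 2, 586 without LY500307 replicate 1 and 487 without LY500307 replicate 2). Members called there were 10 without a filter on low counts and 3 to 7 with 1 library left out, 3 without vehicle replicate 1 or LY500307 replicate 1. With 1 library left out, members called were 14 to 17 in knockout against control, 9 to 11 in add-back against knockout, 14 to 18 in add-back against control and 21 to 23 in vehicle against add-back. With replicate number as a block, 16 members were called in knockout against control, 11 in add-back against knockout, 18 in add-back against control, 22 in vehicle against add-back and 6 in LY500307 against vehicle. Libraries with the same number did not deviate together (correlations from -0.0952 to 0.0603, 0 of 30 over 0.1), so the number was not taken as a pairing. Depth limits the 13 untested members, whose largest count in a library was 11.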
